A study of Mus musculus with 48 samples.

Results

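The comparison concerned trichostatin A (TSA) against hexamethylene bisacetamide (HMBA) after 36 h in murine erythroleukemia cells, read as the transcript ratio between 2 cell lines that respond to inducers to different degrees. It used the 8 arrays whose titles carry 36h_TSA (4 arrays) or 36h_HMBA (4 arrays), out of 48 in the series. On the TSA arrays both lines had received 15 nM TSA, and on the HMBA arrays both had received 3.0 mM HMBA. The lines, HD-MEL and LD-MEL, are a clone of high and a clone of low inducibility derived from T-3-Cl-2-0.fl cells. Every array set HD RNA against LD RNA from cells given the same drug for the same time. The other 10 conditions of the series were 1.0% dimethyl sulfoxide (DMSO), a solvent that also induces these cells, at 6, 12, 24 and 36 h, and TSA and HMBA at the same doses at 6, 12 and 24 h.

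Murine erythroleukemia cells are red cell precursors blocked in maturation by a leukemia virus, and in culture many chemicals release that block. Released cells stop dividing and make haemoglobin. TSA inhibits histone deacetylases, the enzymes that remove acetyl groups from histones, so that acetylation of chromatin rises in treated cells. HMBA is a small polar compound, and a classical inducer of this maturation, that is not a direct inhibitor of these enzymes.

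Several features of the material limit what the values stand for. Each line was 1 clone, and each condition was 1 pair of RNA extracts measured on 4 technical arrays, so no value carries the spread between cultures. Untreated cells were not analysed here, and a ratio alone does not show which line moved. Per the labels, HD is the target and LD the control throughout, and HD carries the same dye throughout. The order of the channels is nevertheless reversed on arrays 3 and 4, and the series describes dye swaps. The direction HD over LD is therefore called likely, and the main counts are also given for arrays 3 and 4 turned round. No table used here pairs the cDNA clones with genes, and the RefSeq table matched 0 of them. The clones are given by their plate and well names, without gene roles or sequences, and the erythroid and other cell type markers could not be checked.

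The files listed 22171 cDNA clones, and between 19501 and 20345 on each of the 8 arrays. The ratio of HD to LD was taken on a log2 scale, where 1 is 2-fold higher and -1 is 2-fold lower in HD cells. It was normalized within each array, and the arrays 1-2 mean and the arrays 3-4 mean were averaged into 1 value per condition. The SD of these values over clones was 0.316 under TSA and 0.221 under HMBA, and the TSA value was the widest of all 12 conditions. Under TSA, arrays 1 and 2 had r = 0.809 over clones and arrays 3 and 4 had r = 0.498, while across these pairs r lay between -0.0769 and 0.112. Under HMBA the same values were 0.479 and 0.578, and between -0.275 and -0.254 across pairs. Ratios under TSA and HMBA had r = 0.230 over clones, with 0.329 on arrays 1-2 and 0.533 on arrays 3-4. Arrays of one orientation share their channel order, so these are descriptions of the arrays.

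More clones differed at least 2-fold between the lines under TSA than under HMBA, and the excess lay on the side of HD cells. Among 17387 clones with a value on all 8 arrays, 125 were at least 2-fold higher in HD cells under TSA with the same sign on all 4 TSA arrays (0.719%), against 24 under HMBA (0.138%). On the lower side there were 23 clones under TSA (0.132%) and 28 under HMBA (0.161%). Of these, 104 clones were 2-fold higher under TSA and not HMBA, 21 under both and 3 under HMBA and not TSA. On the lower side the corresponding counts were 11, 12 and 16. The 21 shared higher clones made up 16.8% of the higher clones under TSA and 87.5% of those under HMBA, while the 12 shared lower clones made up 52.2% and 42.9%. There were 0 clones 2-fold higher under one drug and 2-fold lower under the other. With 1 RNA pair per condition these counts carry no test. On arrays 3-4 alone the excess under TSA was not seen, with 186 higher and 68 lower clones under TSA and 182 and 65 under HMBA. With equal spread set on every array part, an alternative added after seeing the data, 70 clones were higher under TSA and 24 under HMBA. Without TSA array 3 the TSA counts were 216 higher and 83 lower, and without HMBA array 1 the higher HMBA count was 39. With arrays 3 and 4 turned they were 10 higher and 87 lower under TSA and 3 and 94 under HMBA, with 0 higher and 38 lower under both.

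**Figure D1:**
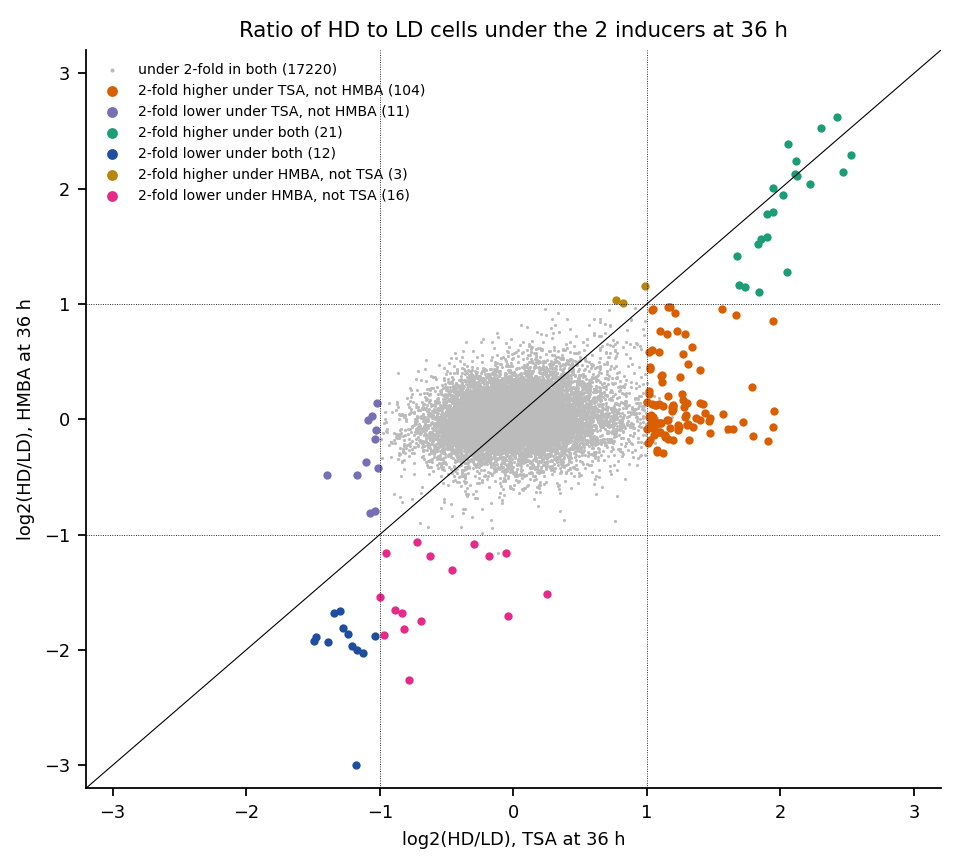
Log2(HD/LD) of each clone at 36 h under TSA (horizontal axis) and HMBA (vertical axis). Points are the 17387 clones with values on all 8 arrays, colours mark the 2-fold classes, dotted lines mark 2-fold and the diagonal marks equal ratios. The 104 clones of the TSA class spread to the right along a HMBA value near 0, the 21 shared higher clones lie near the diagonal, and the 12 shared lower clones lie below it.

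The limma test compared each ratio with 0 across 18494 clones. It gave the 36 h TSA and HMBA values a coefficient each and took the spread from the other 10 conditions about drug and time, so the lone values are assumed to vary as those conditions do. It called 804 clones higher in HD cells under TSA (4.35%) and 286 lower (1.55%), at an adjusted p under 0.05. Under HMBA it called 53 higher (0.287%) and 42 lower (0.227%). Under both drugs 44 clones were called higher and 23 lower, and 1 was called in opposite directions. That clone, H4020E10, had 0.76 under TSA and -0.89 under HMBA, and its difference of 1.64 was called too (adjusted p = 0.0148 in limma). Of the clones called higher under HMBA, 83.0% were also called higher under TSA, and these were 5.47% of the TSA calls. Of those called lower under HMBA, 54.8% were called lower under TSA, which was 8.04% of the lower TSA calls. Both ratios were tested against the same estimate of spread. The numbers of calls moved with single arrays and conditions. Without TSA array 3 there were 2381 calls under TSA, 1357 of them higher and 1024 lower. Without TSA array 1, TSA array 4, DMSO at 24 h and TSA at 24 h, the lower TSA count was 446, 147, 481 and 583. The 95 HMBA calls became 239 without HMBA array 1 and 153 without TSA at 24 h. A fit to single arrays had replicate number as a term and condition as a random block. With a fitted correlation of 0.0527, this blocked fit counts technical arrays as nearly independent. It called 163 clones under HMBA, 98 higher and 65 lower, and 1075 higher and 519 lower under TSA. With 1 loess curve over both array parts the TSA calls split into 651 higher and 475 lower. The TSA calls numbered 160 on the HD side and 33 on the LD side when arrays were only centred on their medians, and the HMBA calls 21 and 23. On arrays 3-4 alone there were 109 and 36 calls under TSA and 125 and 61 under HMBA. With arrays 3 and 4 turned, 2 clones were called higher and 12 lower under TSA, and 6 and 39 under HMBA, with 0 higher and 7 lower under both and 0 in opposite directions.

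The 104 clones that were 2-fold higher in HD cells under TSA and not HMBA had a median log2 ratio of 1.16 under TSA, from 1.00 to 1.95, against 0.02 under HMBA, from -0.29 to 0.97. Their HMBA ratio was below 0 in 45 clones, between 0 and 0.5 in 42 and between 0.5 and 1 in 17. The class thus held clones with little or no HD excess under HMBA and clones that missed the 2-fold line by less than 0.5. Of the 103 that entered the limma test, 27 were called higher under TSA than under HMBA, against 54 of all 18494 tested clones (0.292%). The class was chosen on the same arrays, so nothing is read from this. Of the 27, 20 had an HMBA ratio below 0, 7 between 0 and 0.5 and 0 above that. A low HMBA ratio makes the difference larger, so this split follows largely from the test. No clone was called for the difference with arrays 3 and 4 turned, and the ratio was then higher under TSA in 96 of the 104. The 104 clones lay on 60 plates, with at most 7 on a plate. Part 2 of the array held 75 of them (72.1%), against 44.4% of all clones with values on all 8 arrays.

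H3122G10 led this class by the smaller of its pair means. Its log2 ratios were 2.05, 2.07, 1.57 and 2.09 on the TSA arrays, against 0.83, 0.83, 0.97 and 0.79 on the HMBA arrays. H3122G09, in the next well, had 2.03, 1.55, 1.66 and 1.42 under TSA, against 1.31, 1.34, 0.68 and 0.30 under HMBA. For both clones every TSA array lay above every HMBA array, and both had an HD excess on all HMBA arrays too. The difference of H3122G10 was 1.09 (95% confidence interval from 0.54 to 1.64, adjusted p = 0.0707 in limma). That of H3122G09 was 0.76, from 0.30 to 1.22 (adjusted p = 0.136 in limma), so neither passed the test. The ranking within the TSA class did not use the HMBA value.

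Clones of the class whose difference passed the test stood near 0 under HMBA. This follows largely from the choice, since no difference below 1.03 in size was called. The 2 leading clones among them, named after their values were seen, were H4023G10 and H4004F04. H4023G10 had 2.35, 2.40, 0.89 and 1.24 on the TSA arrays, against 0.20, 0.17, -0.26 and -0.19 on the HMBA arrays. Its difference was 1.74 (95% confidence interval from 1.02 to 2.46, adjusted p = 0.0436 in limma). H4004F04 had 0.74, 2.06, 0.68 and 1.66 under TSA, against 0.01, 0.15, -0.22 and 0.12 under HMBA. Its difference was 1.27, from 0.76 to 1.78 (adjusted p = 0.0407 in limma). In both, all TSA arrays lay above all HMBA arrays, while the TSA arrays themselves spread over more than 2-fold. The call of H4023G10 was lost without TSA array 4 (difference 1.65), and that of H4004F04 without TSA array 2 (0.94) or TSA array 4 (1.02). Without DMSO at 12 h the differences were the same, and the adjusted p in limma was 0.122 for H4023G10 and 0.0992 for H4004F04. H4004F04 was dim, at the 17.5th percentile of mean intensity, and H4023G10 stood at the 74.0th.

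The HD excess of the 104 clones was larger on one pair of TSA arrays. Their median was 1.70 on arrays 1-2 and 0.61 on arrays 3-4 under TSA, against 0.22 and -0.01 under HMBA. The difference TSA minus HMBA was above 0 on arrays 1-2 in 104 of 104 clones and on arrays 3-4 in 102. All 8 arrays went into choosing the class, so these counts describe it. The conditions that did not enter the choice were the 10 others, from the same 2 lines. At 24 h under TSA the median ratio was 0.57 and 104 of 104 clones were above 0, against 0.34 and 96 clones under HMBA and 0.14 and 85 clones under DMSO. Over all clones with values on all 8 arrays, 50% were above 0 there under TSA, 46.5% under HMBA and 51.9% under DMSO. Turning arrays 3 and 4 left 90 of the 104 above 0 at 24 h under TSA, 70 under HMBA and 39 under DMSO. There too TSA arrays 1-2 gave more than arrays 3-4, with 0.93 and 0.15. At 6 and 12 h under TSA the medians were -0.09 and 0.03, so the class stood near 0 early. Under DMSO at 36 h the median was -0.17, and 29 of 104 clones were above 0, against 75 with arrays 3 and 4 turned.

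The 11 clones that were 2-fold lower under TSA and not HMBA had medians of -1.06 under TSA and -0.37 under HMBA. H4040A03 had -1.38, -1.21, -0.80 and -1.30 on the TSA arrays, against -0.08, 0.15, -1.20 and -0.80 on the HMBA arrays. Its groups overlapped, since HMBA arrays 3 and 4 reached the level of the TSA arrays. H4007F04 had -0.94, -1.07, -0.64 and -1.58 under TSA, against 0.32, 0.31, -0.11 and -0.40 under HMBA, with no overlap. Its difference of -1.09 did not pass the test (95% confidence interval from -1.69 to -0.48, adjusted p = 0.103 in limma). None of the 11 was called for the difference (0 of 11), while 8 of 11 had an unadjusted p under 0.05, against 2174 of 18494 tested clones (11.8%). At 24 h under TSA 0 of 11 were above 0, with a median of -0.68, and 3 of 11 were above 0 with arrays 3 and 4 turned. Under HMBA at 24 h 1 of 11 was above 0, with a median of -0.21, and 3 of 11 when turned. Under DMSO at 24 h 7 of 11 were above 0. At 6 h 1 of 11 was above 0 under TSA, 0 under HMBA and 5 under DMSO.

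**Figure D2:**
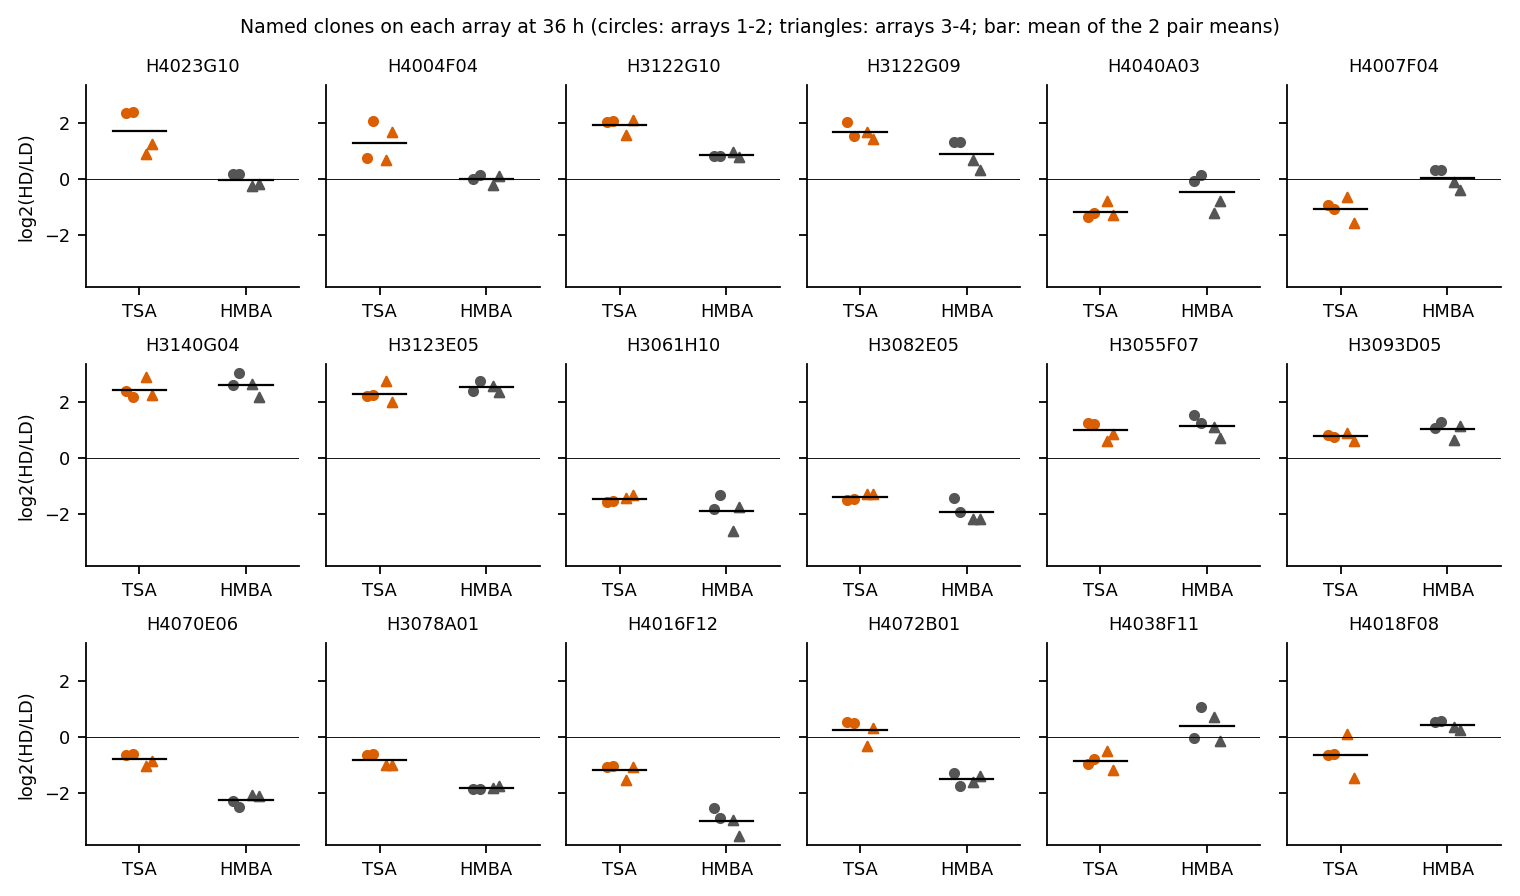
Log2(HD/LD) of 18 named clones on each array at 36 h, with the 4 TSA arrays in orange on the left and the 4 HMBA arrays in grey on the right of each panel. Circles are arrays 1-2, triangles arrays 3-4, and the bar is the condition value. The TSA and HMBA arrays overlap for H3140G04, H3123E05, H3061H10 and H3082E05, and stand apart for H4070E06, H3078A01 and H4016F12.

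The 21 clones that were 2-fold higher in HD cells under both drugs reached similar ratios under the 2 drugs. Their median was 2.02 under TSA, from 1.68 to 2.52, and 1.94 under HMBA, from 1.10 to 2.62. The ratio was larger under TSA in 15 of 21 clones, with a median difference of 0.18, and limma called 0 of 21 for the difference, with 3 (14.3%) at an unadjusted p under 0.05, near the 11.8% of all tested clones. H3140G04 led the class with 2.39, 2.17, 2.89 and 2.24 on the TSA arrays, against 2.62, 3.02, 2.65 and 2.20 on the HMBA arrays. Its difference was -0.20 (95% confidence interval from -0.71 to 0.31, adjusted p = 0.868 in limma). H3123E05 had 2.20, 2.26, 2.75 and 2.00 under TSA, against 2.41, 2.77, 2.57 and 2.34 under HMBA. Its difference was -0.22, from -0.67 to 0.24 (adjusted p = 0.810 in limma). The arrays of both drugs overlapped in these clones, and the intervals leave room for differences in either direction. With arrays 3 and 4 turned, the TSA values became -0.14 and -0.07.

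As labelled, the shared higher clones had their large ratios at 36 h under all drugs. Under DMSO at 36 h, which did not enter the choice, 21 of 21 were above 0 with a median of 1.03, and 11 were at least 2-fold higher. Over all clones with values on all 8 arrays, 49.2% were above 0 there and 11 of 17355 were at least 2-fold higher. With arrays 3 and 4 turned, 17 of the 21 were above 0 there, with a median of 0.17. At 6 h, as labelled, the medians were 0.09 under TSA, 0.32 under HMBA and 0.04 under DMSO. Above 0 in the same order were 17, 20 and 13 of the 21 at 6 h, and 19, 20 and 19 at 12 h. Over all clones with values on all 8 arrays, the shares above 0 there lay between 46.7% and 51.3%. At 24 h the medians were 0.77 under TSA, 0.52 under HMBA and 0.32 under DMSO. With arrays 3 and 4 turned they were 0.08, 0.06 and -0.10. Part 2 of the array held 17 of the 21, and the clones lay on 11 plates, with 6 in a well next to another of the class.

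The 12 clones that were 2-fold lower in HD cells under both drugs had a smaller deficit under TSA. Their median was -1.26 under TSA, from -1.50 to -1.04, against -1.91 under HMBA, from -2.996 to -1.66. The difference was above 0 in 12 of 12 clones, with a median of 0.59, and it was 0.26 on arrays 1-2 and 0.79 on arrays 3-4. One by one, 1 of the 12, H4016F12, passed the limma test of the difference, and 7 had an unadjusted p under 0.05, against 11.8% of all tested clones. The difference was above 0 in 3 of 12, with a median of -0.18, once arrays 3 and 4 were turned. H3061H10 led the class with -1.58, -1.55, -1.44 and -1.34 on the TSA arrays, against -1.83, -1.33, -2.62 and -1.76 on the HMBA arrays. H3082E05 had -1.49, -1.47, -1.31 and -1.29 under TSA, against -1.44, -1.93, -2.17 and -2.19 under HMBA. HMBA array 2 of H3061H10 and HMBA array 1 of H3082E05 lay within or above the range of the TSA arrays, so the groups overlapped. Their differences were 0.41, from -0.17 to 0.99 (adjusted p = 0.648 in limma), and 0.54, from 0.0037 to 1.09 (adjusted p = 0.421 in limma).

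As labelled, the deficit of these 12 clones was present in every condition of the series. At 6 h the median was -0.71 under TSA, -1.13 under HMBA and -0.88 under DMSO, and at 24 h it was -1.22, -1.16 and -1.07. At 36 h under DMSO it was -1.60, with 12 of 12 at least 2-fold lower. As labelled, the 12 thus differed between the lines at all times measured. The 21 shared higher clones had medians of 0.32 or less at 6 h, though most of them were above 0 there. With arrays 3 and 4 turned, the medians of the 12 at 24 h were -0.22 under TSA, -0.08 under HMBA and 0.03 under DMSO. Above 0 there were 5, 4 and 8 of the 12. Under DMSO at 36 h the turned median was -0.06, with 2 of 12 above 0. Part 1 of the array held 10 of the 12.

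**Figure D3:**
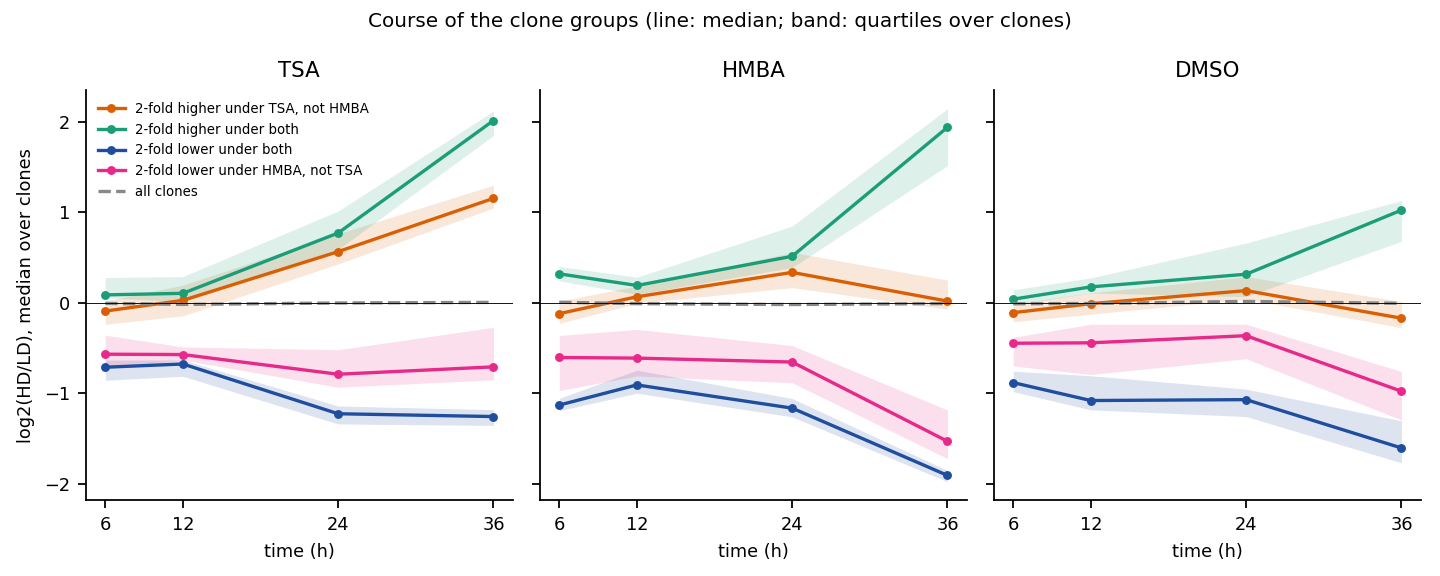
Median log2(HD/LD) of 4 classes chosen at 36 h, against time in hours under TSA, HMBA and DMSO. Lines are medians over clones, bands are quartiles and the dashed line is the median of all clones. As labelled, the shared lower class is below 0 at every time. At 36 h it stands at -1.26 under TSA, -1.91 under HMBA and -1.60 under DMSO.

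Of the 16 clones that were 2-fold lower under HMBA and not TSA, all but 1 were below 0 under TSA too. Their median was -0.71 under TSA, from -0.99 to 0.25, against -1.53 under HMBA, from -2.26 to -1.07. The TSA ratio was between 0.5 and 1 in size for 10 of the 16. H4070E06 led them with -0.66, -0.60, -1.03 and -0.86 on the TSA arrays, against -2.31, -2.52, -2.08 and -2.13 on the HMBA arrays. All TSA arrays lay above all HMBA arrays, by more than 2-fold. Its difference was 1.47 (95% confidence interval from 1.00 to 1.95, adjusted p = 0.0148 in limma). Without DMSO at 12 h the difference was the same and the adjusted p in limma was 0.0967. H3078A01 had -0.65, -0.62, -0.998 and -1.002 under TSA, against -1.85, -1.87, -1.82 and -1.75 under HMBA. Its difference of 1.00, from 0.50 to 1.51, did not pass (adjusted p = 0.0707 in limma). Of the 16 clones 3 were called for the difference, and 14 had an unadjusted p under 0.05, against 0.308% and 11.8% of all tested clones. This class, too, was chosen on these arrays.

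The 3 clones that were 2-fold higher under HMBA and not TSA stood at 0.77 to 0.98 under TSA and 1.01 to 1.15 under HMBA. H3055F07, the first of them, had 1.23, 1.23, 0.61 and 0.86 on the TSA arrays, against 1.54, 1.26, 1.11 and 0.70 on the HMBA arrays, which overlapped. Its difference was -0.17 (95% confidence interval from -0.66 to 0.32, adjusted p = 0.888 in limma). H3093D05 had 0.84, 0.75, 0.89 and 0.60 under TSA, against 1.07, 1.29, 0.65 and 1.13 under HMBA, and overlapped as well. None was called for the difference in limma (0 of 3, with 0 at an unadjusted p under 0.05), and all 3 were called higher in HD cells under both drugs in limma.

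The smaller deficit under TSA was looked at in clones chosen without either drug. This choice was made after the data had been seen, and it carries no test. Among clones with all TSA, HMBA and DMSO arrays at 36 h, 21 were at least 2-fold lower in HD cells under DMSO with the same sign on all 4 arrays. Their median ratio was -1.13 under TSA, -1.86 under HMBA and -1.41 under DMSO. The TSA value was above the HMBA value in 20 of 21 (95.2%), against 50.9% of all 16958 clones. The median difference was 0.76, with 0.74 on arrays 1-2 and 0.80 on arrays 3-4. At least 2-fold lower were 13 of the 21 under TSA and 20 under HMBA. With arrays 3 and 4 turned the difference was above 0 in 10 of 21, with a median of -0.05. The 21 include all 12 shared lower clones and 8 of the HMBA class, so they are not a separate set. The 11 clones that were 2-fold higher under DMSO had medians of 2.11 under TSA and 2.13 under HMBA, with TSA above HMBA in 5 of 11 and a median difference of -0.02.

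The direct test of TSA minus HMBA called 57 of 18494 clones (0.308%), 54 with a higher ratio under TSA (0.292%) and 3 with a lower one (0.0162%). For most of the 54, HD cells were above LD cells under TSA and slightly below them under HMBA. The ratio was above 0 under TSA and below 0 under HMBA in 44, above 0 under both in 7 and below 0 under both in 3. The clones were chosen by this difference, so the signs describe them and nothing more is read from them. Medians were 1.08 under TSA and -0.20 under HMBA, and differences ran from 1.03 to 2.10, with a lowest adjusted p of 0.0113 in limma. That lowest value belonged to H3156F05, with 1.59 under TSA and -0.11 under HMBA. The sign rule kept this clone out of the fold classes, so its TSA arrays did not all have the same sign. The limma test used condition values, which do not show such disagreement between technical arrays. At an unadjusted p under 0.05 there were 2174 clones, 1337 higher and 837 lower. The 95% interval of a single clone, without adjustment, reached a median of 0.504 to either side of a difference. After adjustment no difference below 1.03 in size was called, so the lack of calls says little about smaller differences.

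The number of calls was not stable. It was 89, 101, 470 and 7 without TSA arrays 1, 2, 3 and 4, and 257, 99, 128 and 114 without HMBA arrays 1, 2, 3 and 4. Leaving out DMSO at 12 h gave 0 calls and leaving out DMSO at 24 h gave 165. The count was 136 when HMBA at 6 h was left out, 93 when HMBA at 24 h was, and 304 when TSA at 24 h was. The lower calls numbered 10, 7, 133 and 0 without TSA arrays 1, 2, 3 and 4, 42, 6, 11 and 18 without HMBA arrays 1, 2, 3 and 4, and 5 without HMBA at 12 h. Arrays 1-2 alone and arrays 3-4 alone each gave 0, as did arrays 3 and 4 turned and median centring. At an unadjusted p under 0.05 these settings had 1774, 867, 709 and 1753 clones, and the fit without DMSO at 12 h had 2610. With 1 loess curve over both array parts 10 were called higher and 2 lower. The blocked fit called 206, 194 higher and 12 lower.

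Of the 54 clones, 47 were on part 2 of the array. Over the whole array, 50 of 8316 tested clones were called on part 2 (0.601%), against 7 of 10178 on part 1 (0.0688%). The SD of the TSA values was 0.370 on part 2 and 0.261 on part 1, and that of the HMBA values was 0.233 and 0.210. Among the other 10 conditions the highest was 0.292 on part 2 and 0.281 on part 1. With equal spread set on every array part, an alternative added after seeing the data, 8 clones were called. Whether the wider spread of part 2 under TSA contributed to the calls beyond this was not tested.

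H4016F12 had the first place by the smaller of its pair differences. Its ratios were -1.06, -1.04, -1.54 and -1.08 on the TSA arrays, against -2.56, -2.89, -2.99 and -3.55 on the HMBA arrays. The clone was thus lower in HD cells under both drugs, with no overlap and a deficit that was smaller under TSA. Its difference was 1.81 (95% confidence interval from 1.24 to 2.39, adjusted p = 0.0148 in limma), against -0.15 with arrays 3 and 4 turned. Without DMSO at 12 h the difference was the same and the adjusted p in limma was 0.0967. Its ratio under DMSO at 36 h was -1.76, and its TSA and HMBA ratios were -1.85 and -1.89 at 24 h.

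H4072B01 had 0.54, 0.49, -0.34 and 0.31 on the TSA arrays, against -1.29, -1.77, -1.61 and -1.39 on the HMBA arrays. It was near equal between the lines under TSA and lower in HD cells under HMBA, without overlap. Its difference was 1.77, from 1.09 to 2.45 (adjusted p = 0.0388 in limma). The call was lost without TSA array 4 (difference 1.61) and, at the same difference, without DMSO at 12 h (adjusted p = 0.109 in limma). In the other direction, H4038F11 had -0.97, -0.78, -0.50 and -1.20 under TSA, against -0.05, 1.06, 0.73 and -0.13 under HMBA. Its difference was -1.26, from -1.77 to -0.76 (adjusted p = 0.0407 in limma), with no overlap of arrays. Its call was lost without TSA array 4 (-1.09), HMBA array 2 (-0.99), HMBA array 3 (-1.05), and, at the same difference, without DMSO at 12 h (adjusted p = 0.0967 in limma). The other 2 called lower clones, H4031A12 with -1.38 (adjusted p = 0.0388 in limma) and H4038A11 with -1.20 (adjusted p = 0.0436 in limma), lacked a value on at least 1 of the 8 arrays. The ranking left such clones out, and they are named after their values were seen. Next in the ranking, and not called, was H4018F08, with -0.66, -0.63, 0.12 and -1.47 under TSA, against 0.54, 0.57, 0.37 and 0.26 under HMBA. Its difference was -1.09 (adjusted p = 0.0959 in limma), and it was -1.49 and called without TSA array 3.

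At 36 h the DMSO ratio was nearer to the HMBA than to the TSA ratio in 53 of the 54 clones, against 12807 of 18494 over all tested clones. This held for 42 of the 54 with arrays 3 and 4 turned. The median TSA value exceeded the DMSO value at 36 h by 1.33, while HMBA exceeded it by 0.0086. The 54 were chosen for a large difference between the drugs, with medians of 1.08 under TSA and -0.20 under HMBA. A clone with little difference between the lines under DMSO is then nearer to HMBA largely by this choice. All tested clones were not chosen this way, so they are no fair comparison. Nothing is read from these counts and distances at 36 h. At 24 h the TSA ratio was above the HMBA ratio in 44 of 54 clones, with a median difference of 0.28. At 12 h it was above in 32 with 0.06, and at 6 h in 26 with -0.01. Over all 18494 tested clones the counts were 9465 at 24 h, 9271 at 12 h and 8997 at 6 h. With arrays 3 and 4 turned, 33 of the 54 were above at 24 h, against 9216 of the 17387 clones with all 8 arrays. These other conditions did enter the estimate of spread but not the difference at 36 h. At 24 h the median difference was 0.38 on arrays 1-2 and 0.15 on arrays 3-4.

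Arrays 1-2 and arrays 3-4, taken apart, gave different counts. On arrays 1-2 alone, 706 clones were 2-fold higher and 292 lower under TSA, against 105 and 186 under HMBA. On arrays 3-4 alone the TSA counts were 186 and 68, and the HMBA counts 182 and 65. The excess of higher clones under TSA over HMBA was thus seen on arrays 1-2, while on arrays 3-4 the counts of the 2 drugs were close. A difference of at least 1 was found for 685 clones higher and 321 lower under TSA on arrays 1-2, against 105 and 61 on arrays 3-4. Both pairs gave a 2-fold HD excess under TSA in 36 clones and a deficit in 12, and under HMBA in 18 and 24. Of the clones 2-fold lower on arrays 1-2, 37 of 274 under TSA and 49 of 178 under HMBA were 2-fold higher on arrays 3-4, more than were 2-fold lower on both pairs. Of those higher on arrays 1-2, 1 under TSA and 1 under HMBA was 2-fold lower on arrays 3-4.

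Most differences seen on arrays 1-2 kept their sign on arrays 3-4, at a smaller size. Of the 662 clones higher under TSA by at least 1 on arrays 1-2, among those with all 8 arrays, 501 also had a difference above 0 on arrays 3-4, and 26 again reached 1. Of the 299 lower by at least 1 on arrays 1-2, 216 had a difference below 0 on arrays 3-4, and 1 again reached -1. In the reverse direction the signs held less often for lower differences. Of 86 clones higher by at least 1 on arrays 3-4, 62 had a difference above 0 on arrays 1-2. Of 57 lower by at least 1 on arrays 3-4, 31 had a difference below 0 on arrays 1-2. Over all 17387 clones the difference was above 0 on arrays 3-4 in 8542 and on arrays 1-2 in 9072. Over all clones the differences of the 2 pairs had r = 0.198, with SDs of 0.523 on arrays 1-2 and 0.358 on arrays 3-4. Averaged over pairs, with the same sign in both, 155 clones had a difference of at least 1 (0.891%) and 18 of at most -1 (0.104%). Without TSA array 3 these were 239 and 105, and without HMBA array 1 the total was 273, 58 of them lower. The lower count was 33, 7 and 47 without TSA array 1, TSA array 4 and HMBA array 4. Median centring gave 221 higher and 170 lower, 1 loess curve over both parts 128 and 38, and arrays 3 and 4 turned 20 and 10. All 4 TSA arrays lay above all 4 HMBA arrays in 509 clones (2.93%) and below them in 498 (2.86%), so that by this count the sides were close. Turned, arrays 3 and 4 gave 545 and 346.

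**Figure D4:**
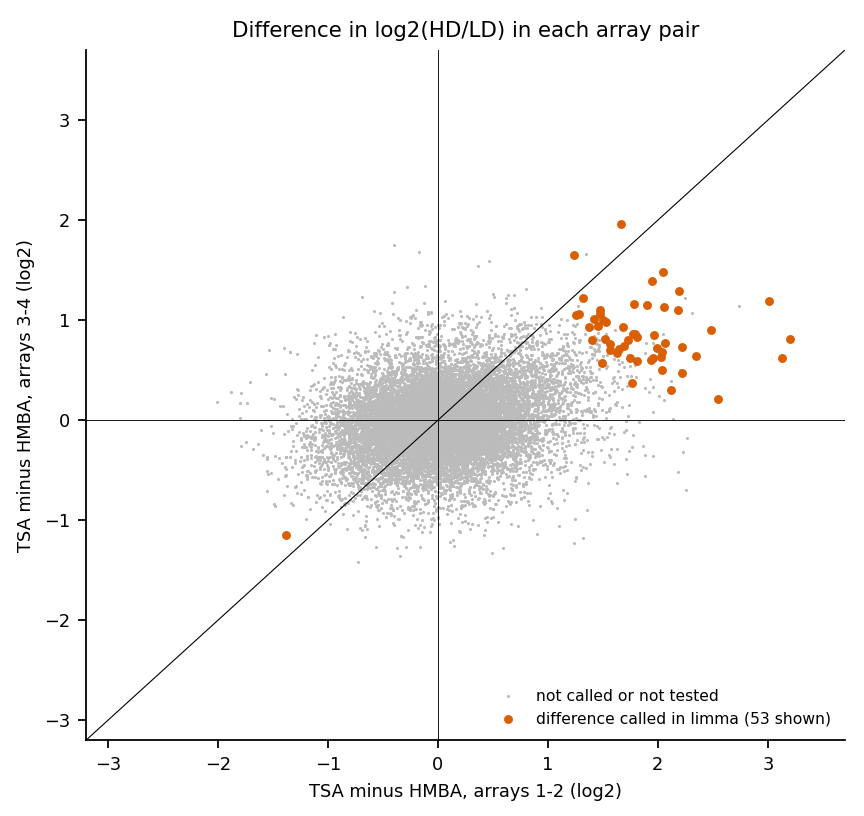
TSA minus HMBA difference in log2(HD/LD) on arrays 1-2 (horizontal axis) and arrays 3-4 (vertical axis) for the 17387 clones with all 8 arrays. Orange points are the 53 of the 57 called clones that have all 8 arrays, and the diagonal marks equal differences. Most called clones lie below the diagonal, with medians of 1.78 on arrays 1-2 and 0.82 on arrays 3-4 for the 54 higher ones.

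The signal of each line was compared between the drugs, after normalization between arrays, to see on which side the ratios parted. For the 104 clones of the TSA class, the median log2 intensity was higher under TSA than under HMBA by 1.10 in HD cells and by 0.07 in LD cells, against 0.04 and 0.05 over all clones. For the 54 clones called higher, these were 1.49 and 0.05. With the channels of arrays 3 and 4 exchanged, the medians were 0.71 and 0.41 for the 104 clones and 1.09 and 0.46 for the 54. By how these values are built, the HD minus the LD value of a clone is its difference in ratio. That difference was above 0 in all 104 and all 54 clones, so a larger value in HD cells follows from the choice. The margin was smaller with the channels exchanged. By the same build, a larger difference in ratio lowers the LD value of a clone at a given mean intensity. The LD level, as labelled near that of all clones, is therefore not free of the choice, and nothing is read from it. In the 104 clones the LD value had quartiles of -0.22 and 0.42, against -0.27 and 0.36 over all clones. For the 11 clones of the lower TSA class the medians were -0.53 in HD cells and 0.54 in LD cells, and -0.13 and 0.21 with the channels exchanged.

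The clones with a deficit in HD cells looked different, since both lines had more signal under TSA than under HMBA. For the 12 shared lower clones the difference was 1.84 in HD cells and 1.04 in LD cells, and for the 16 clones of the HMBA class it was 1.94 and 1.00. For the 21 clones chosen under DMSO it was 1.89 and 1.02. For the 21 shared higher clones both lines were also higher under TSA, by 0.98 in HD cells and 0.76 in LD cells. With the channels of arrays 3 and 4 exchanged, HD and LD cells were about equally higher, by 1.47 and 1.49 for the shared lower clones, 1.49 and 1.42 for the HMBA class and 0.79 and 0.83 for the shared higher clones. The single-channel values compare different arrays, with SDs over tested clones of 0.576 in HD cells and 0.513 in LD cells, and they carry no test.

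**Figure D5:**
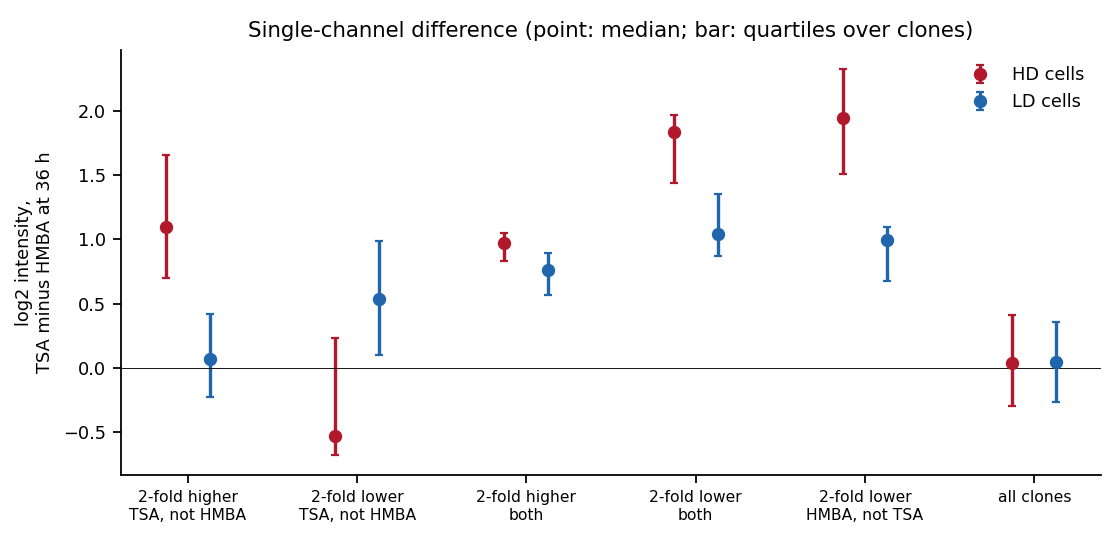
Log2 intensity under TSA minus that under HMBA at 36 h, by class, in HD cells (red) and LD cells (blue). Points are medians over clones and bars are quartiles. HD and LD cells part in the TSA class, at 1.10 and 0.07, in a direction that follows from how the class was chosen. Both are above 0 in the shared lower class, at 1.84 and 1.04.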

How the data were processed

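Each array had been deposited as 2 parts that give, per the file headers, an intensity of the target and of the control RNA for each clone, with no background or flag columns. A deposited table of the authors gives log2 ratios of the same arrays. On the 8 arrays it had r from 0.9965 to 0.9991 with the ratios computed here, and no source used here gives its normalization. It served as an alternative. Aligned to the labels, log2(HD/LD) was normalized per array part by loess (span 0.3, 4 iterations). A clone entered limma 3.58.1 (R 4.3.3) with a value in both array pairs of all 12 conditions, giving 4 residual degrees of freedom and a prior of 12.7. Tests were two-sided with Benjamini-Hochberg adjustment over 18494 clones. The number of arrays limits the precision, and all arrays of a condition are technical. Named clones were ranked in each class by the smaller absolute pair mean or pair difference, and the first 2 per direction are printed. The members, classes and lists were chosen with earlier results of these data known. Same-numbered arrays of TSA and HMBA had correlated deviations from the means of their conditions (r from 0.366 to 0.497 over clones). The differences between arrays 1 and 2 had r = 0.0674 between the drugs, and those between arrays 3 and 4 r = -0.0142, so the numbers pair arrays by orientation. The blocked fit used the replicate number as a fixed term and the condition as a random block (correlation 0.0527). The statistics were tested on simulated data. All 12 conditions of a clone were given the same spread there. The assumption that the lone 36 h values vary as the other conditions do was therefore not tested. Normalization, offset, dim clones, array pairs, fold, model, single arrays and conditions were varied as alternatives.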

Additional observations from a re-analysis of the deposited data

Results flagged for a closer look

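On 2 of 36 groups of 4 arrays looked at, 1 array stood apart from the other 3, where chance alone gives about 1.8. H3122G10 had 1.57 on TSA array 3, below its other TSA arrays. H4016F12 had -1.54 on TSA array 3, also below its other TSA arrays.

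The difference between the drugs was called for these named clones, as TSA minus HMBA in log2(HD/LD). It was 1.47 for H4070E06, 1.81 for H4016F12, 1.77 for H4072B01, 1.74 for H4023G10, 1.27 for H4004F04 and -1.26 for H4038F11. In all, 54 clones had a higher and 3 a lower ratio under TSA than under HMBA.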

How the results depend on the processing

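The counts below are totals over both directions. The number of clones called for TSA minus HMBA, 57 in the report, was 0 with median centring. It was 12 with 1 loess curve over both parts and 110 from the authors' log2 table. An offset of 50 gave 335, and leaving out the dimmest 25% gave 160. It was 0 with arrays 3 and 4 turned, on arrays 1-2 alone and on arrays 3-4 alone. With 1 common mean for the other conditions it was also 0. It was 17 with clones that miss conditions, 243 with a trended and robust prior and 206 with the blocked fit. Fitting each part by itself and setting equal spread, both added after seeing the data, gave 17 and 8. It ran from 7 to 470 when 1 array was left out and from 0 to 304 when another condition was. Called against 0, the 1090 clones under TSA became 193 with median centring, 1807 with the offset, 14 with arrays turned, 145 on arrays 3-4 alone, 661 with the common mean and 608 with equal spread, and 786 to 2381 without 1 array and 951 to 1626 without 1 condition. The 95 under HMBA became 44, 143 and 45 under the first 3 of these, 46 on arrays 1-2 alone, 186 on arrays 3-4 alone, 158 with the trended prior and 163 with the block, and 95 to 239 without 1 array and 74 to 153 without 1 condition. The 148 clones 2-fold different under TSA became 97 with arrays turned, 998 on arrays 1-2, 254 on arrays 3-4, 952 and 31 at fold thresholds of 1.5 and 3, and 82 with equal spread, and 123 to 299 without 1 array. The 52 under HMBA became 97, 291, 247, 206 and 32 in the first 5 of these settings, and 52 to 70 without 1 array. The 33 under both became 114 and 82 on the array pairs and 100 and 13 at the other folds, and 32 to 36 without 1 array. The 173 differences of at least 2-fold became 391 with median centring, 86 with the offset, 30 with arrays turned, 1006 on arrays 1-2, 1405 and 13 at folds of 1.5 and 3, and 77 with equal spread, and 122 to 344 without 1 array.

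Among the named values that were called in the report and followed through these settings, signs reversed only with arrays 3 and 4 turned. The TSA values were then 0.052 for H4007F04, 0.16 for H4070E06, 0.18 for H3078A01, -0.14 for H3140G04, -0.073 for H3123E05 and 0.13 for H4016F12. The HMBA values were -0.026 for H3122G10, 0.31 for H3061H10, 0.25 for H3082E05 and 0.27 for H4016F12, whose difference was -0.15. Of the differences not called, those of H3122G09, H3061H10 and H3082E05 became -0.29, -0.39 and -0.34 when turned, and that of H3140G04 was 0.14 on arrays 3-4 alone. Other uncalled values, all of 0.66 or less in size, also changed sign in some settings. The median difference of the shared lower clones was -0.18 and that of the shared higher clones -0.07 with arrays 3 and 4 turned. At an unadjusted p under 0.05, the common mean had 1907 clones for the difference. The cause of these changes was not tested. In the named clones, calls of the difference held in 26 of 32 alternatives for H4070E06, 25 for H4016F12, 21 for H4072B01 and H4023G10 and 19 for H4038F11, and in 19 of 31 for H4004F04. No filter on background was run, since the files hold no background values.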

Other observations

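The wells of the 54 clones called higher under TSA than under HMBA lay on 40 plates, with at most 3 on a plate and 2 in a well next to another of them. Their median intensity stood at percentile 42.3, and 7 were among the dimmest 25% of clones. The 23 clones called lower in HD cells under both drugs, and the 44 called higher, came from 95 HMBA and 1090 TSA calls. Of the 1090, 53 (4.86%) were also called for the difference between the drugs. Signs on single arrays gave 103 clones with all 4 TSA arrays above 0 and all 4 HMBA arrays below 0, and 85 with the reverse, among 17387. With arrays 3 and 4 turned these were 97 and 59.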
